A study of Mus musculus with 12 samples.

Results

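Tln1, Vcl, Pxn, Zyx, Tns1, Actb, Myh9, Flna, Luzp1 and Marcks encode proteins of focal adhesions and of the actin cytoskeleton. These 10 genes were taken as a named list from the 21631 protein-coding genes on chromosomes 1 to 19 and X of the mouse build GRCm38. Each gene was examined over its annotated span with 5 kb on each side, called its locus here, in 6 lists of H3K27ac peaks. The genes were selected on measured values, namely the covered length of these same peak lists in both genotypes, Zyx having stood out for less of it in Azin2-/-. Genotype differences of the 10 genes are therefore descriptions of these libraries and not independent tests.

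H3K27ac, acetylation of histone H3 at lysine 27, marks active promoters and enhancers, and was mapped by ChIP-seq. The tested cells were Azin2-/- adipocyte progenitors (3 libraries, replicates 1, 2 and 8), which lack antizyme inhibitor 2, a regulator of polyamine synthesis, and the controls were wild-type progenitors (3 libraries, replicates 1, 2 and 2b). All came from subcutaneous fat and shared 1 culture schedule, with 1 week in 4.5 g/l glucose and 10% serum. An adipogenic mix followed for 2 days, made of rosiglitazone (1 µM), dexamethasone (1 µM), IBMX (0.5 mM) and insulin (5 µg/ml), and for the last 5 days insulin was given without the other agents. The labels give neither the knockout allele, nor the age or sex of the mice, nor whether libraries came from separate animals, so the spread between libraries may be technical. Nor do they say whether replicate 2b repeats replicate 2. Per-library values below follow replicates 1, 2, 8 in Azin2-/- and then replicates 1, 2, 2b in wild-type.

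A focal adhesion is the site where integrins in the membrane hold the matrix outside the cell and, through a plaque of adaptor proteins, the actin filaments inside it. Progenitors of fat cells are spread, fibroblast-like cells with stress fibres, and they lose these and round up as they become adipocytes. The amount of unpolymerised actin controls the cofactors of serum response factor (SRF), which drives many genes of this group through a DNA element called the CArG box.

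The measure used throughout is the length in bp that the 30000 strongest peaks of a library cover, and each such peak is called a stretch. Peaks at a q of 0.05 or less numbered 54847, 18742 and 13843 in Azin2-/- and 21544, 16587 and 15737 in wild-type. In all libraries but Azin2-/- replicate 1 the weakest stretches thus miss that cutoff. The weakest had a q of 0.116 in Azin2-/- replicate 8 and 0.185 in wild-type replicate 1. Azin2, the deleted gene, had 1176, 870 and 1492 bp of H3K27ac cover over its locus in Azin2-/- and 1434, 1150 and 2426 bp in wild-type, which overlap. The mark can lie outside the deleted part, which the labels do not give, so it does not check the genotypes. Read totals are not given, so depth was judged from the background level implied by each list, which was 0.293, 0.462 and 1.02 fragments per bp in Azin2-/- and 0.164, 0.433 and 0.303 in wild-type. The stretches covered 28.9, 22.6 and 21.1 Mb in Azin2-/- and 16.8, 21.9 and 28.0 Mb in wild-type. Of 8 progenitor markers 2 had cover in all 6 libraries, and of 8 adipocyte markers also 2, with Adipoq at 0 in every library. Of the epithelial markers 2 of 4, and of the blood and macrophage markers 1 of 6, had cover in all 6 libraries. No endothelial, smooth muscle, skeletal muscle or Schwann cell marker had cover in all libraries. Summed cover of the smooth muscle and pericyte markers, cells rich in actin filaments, was 1724 to 6252 bp in Azin2-/- and 1730 to 3334 bp in wild-type libraries.

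The RefSeq promoter table (GRCm38.p6) gave a start for 7 of the 10 genes. Pxn, Actb and Marcks have none in it. The promoters of Zyx, Tln1 and Vcl are shown because the acetylated cover at the start differed most between genotypes for Zyx and Tln1 and least for Vcl. Each runs 5′ to 3′ along the gene, from 250 bases before to 50 bases after the start. Capitals mark an AP-1 element (TGANTCA) in Zyx and, in Vcl, a CArG box followed by a TEAD element (GGAATG). The Tln1 window held no match to any motif searched.
Zyx, chr6:42349578-42349877, plus strand: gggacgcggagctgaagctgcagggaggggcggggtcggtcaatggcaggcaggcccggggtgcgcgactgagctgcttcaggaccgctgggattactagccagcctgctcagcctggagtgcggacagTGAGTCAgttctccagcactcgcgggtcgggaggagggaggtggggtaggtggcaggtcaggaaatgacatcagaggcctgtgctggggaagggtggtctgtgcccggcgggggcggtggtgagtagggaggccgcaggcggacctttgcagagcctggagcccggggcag
Tln1, chr4:43562534-43562833, minus strand: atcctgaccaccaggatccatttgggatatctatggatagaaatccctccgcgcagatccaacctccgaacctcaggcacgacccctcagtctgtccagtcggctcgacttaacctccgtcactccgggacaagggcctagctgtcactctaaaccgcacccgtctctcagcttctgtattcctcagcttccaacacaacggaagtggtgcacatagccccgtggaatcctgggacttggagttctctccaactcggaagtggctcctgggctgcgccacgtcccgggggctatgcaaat
Vcl, chr14:20929148-20929447, plus strand: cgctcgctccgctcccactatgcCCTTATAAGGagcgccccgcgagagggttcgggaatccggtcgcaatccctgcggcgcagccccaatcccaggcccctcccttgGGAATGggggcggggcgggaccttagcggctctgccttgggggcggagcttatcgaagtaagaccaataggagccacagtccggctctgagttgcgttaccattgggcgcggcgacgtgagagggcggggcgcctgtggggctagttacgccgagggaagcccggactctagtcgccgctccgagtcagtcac

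Both strands of these windows were searched, and a match describes letters and not binding. The CArG box was found in 1 of the 7 promoters, that of Vcl, and in 1.63% of all 32851 promoters in the table. AP-1 (TGANTCA) was in 1 of 7, that of Zyx at position -121, against 7.81% of all, and the TEAD element (GGAATG) in 2 of 7, those of Vcl and Flna, against 14.7% of all. The GC box (GGGCGG), bound by SP and KLF factors, was in 6 of 7 and in 35.7% of all promoters. CCAAT was in 2 of 7 against 37.4% of all, and TATAAA in 1 of 7, that of Myh9, against 13.6% of all. All 7 had a GC content above the median of 52.7% of all promoters, between 57.0% in Tln1 and 75.7% in Tns1.

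Acetylation over most of these genes recurred across libraries. The genes were selected on covered length in these same lists, so their standing beside all loci, starts and regions is a description. Of the 10 loci 9 held a stretch in all 6 libraries, Flna being the exception, compared with 31.4% of all loci. Of the 7 genes with a table start 6 had a stretch within 2 kb of it in all 6 libraries, compared with 18.9% of 17274 starts. The mean scaled cover of the loci lay between the 65.8th percentile of all loci for Flna and the 99.8th for Tns1, the longest of the 10 genes. Merging the stretches of the 6 libraries gave 92 regions in the 10 loci. Of these, 11 were present in all 6 libraries and 70 (76.1%) in a single library. Among all 128537 regions 3.23% were present in all 6 libraries and 85.8% in a single library.

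**Figure D1:**
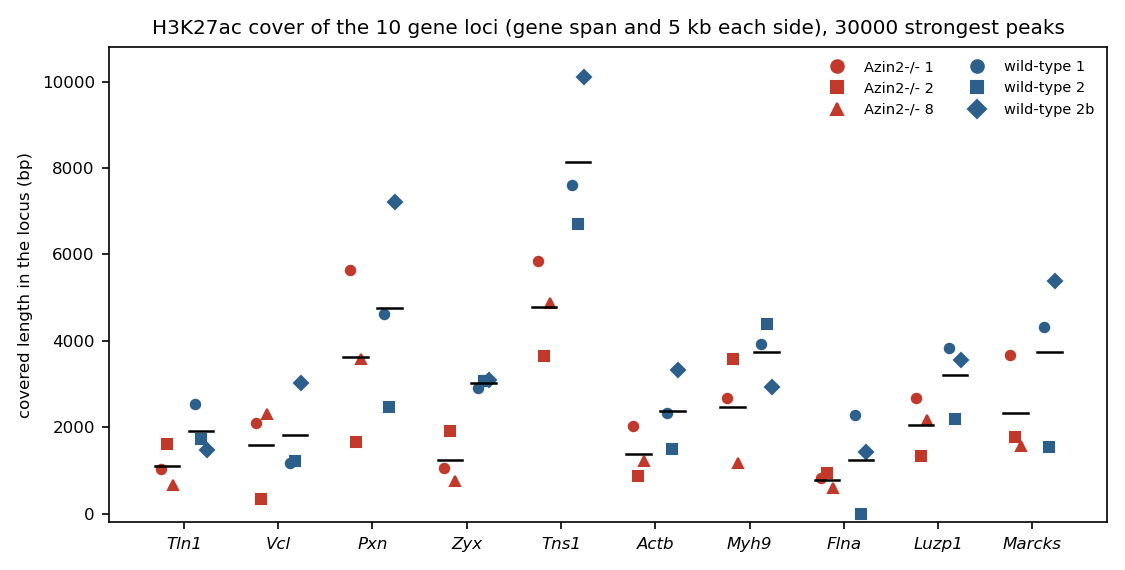
Covered length in bp (y axis) of the 30000 strongest peaks within each gene and 5 kb on each side, for the 10 genes (x axis). Each point is a library, red for Azin2-/- and blue for wild-type, and black lines are means; the genotypes are apart at Zyx and Tns1 and overlap at the other 8 genes.

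Talin 1, encoded by Tln1 (chromosome 4, 43531513 to 43562583), binds integrin tails and links them to actin. Its locus had 1030, 1612 and 668 bp of cover in Azin2-/- and 2536, 1728 and 1487 bp in wild-type, so the genotypes overlapped over the whole locus. They did not overlap within 2 kb of the start, where cover was 1030, 718 and 668 bp in Azin2-/- and 2147, 1386 and 1487 bp in wild-type. The strongest stretch of every list lay there, and its summit fell within a span of 34 bp in all 6 libraries, between 418 and 452 bp downstream of the start. What differed was its upstream edge. In Azin2-/- the edge lay at -11, 10 and 215 bp from the start and in wild-type at -581, -720 and -747 bp. The Tln1 promoter bases printed above were thus covered over 61, 40 and 0 of 300 bases in Azin2-/- and over all 300 in each wild-type library. An end of Creb3, a membrane-bound transcription factor gene, lies within 1 kb of this region, and the cover cannot be divided between Tln1 and Creb3. In bulk chromatin, less acetylation per cell and fewer cells that carry it cannot be told apart, here and below. The share of all starts whose edges are apart between genotypes was not computed, so edges here and below are descriptions.

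Vinculin, encoded by Vcl (chromosome 14, 20929383 to 21033676), binds talin and actin and strengthens adhesions under tension. Cover of its locus was 2111, 353 and 2319 bp in Azin2-/- and 1184, 1229 and 3028 bp in wild-type, which overlap widely. At the start the values were 1875, 353 and 1098 bp in Azin2-/- and 634, 663 and 1737 bp in wild-type. Among the 6 starts tested Vcl had the smallest genotype difference and the largest SE. Its CArG box lies in the part of the promoter that was covered in Azin2-/- replicates 1 and 8 and in wild-type replicate 2b, the 3 libraries in which the whole window was covered.

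Paxillin, encoded by Pxn (chromosome 5, 115491970 to 115555987), is a scaffold that adhesion kinases phosphorylate. Its locus had 5632, 1663 and 3571 bp of cover in Azin2-/- and 4632, 2477 and 7205 bp in wild-type. Within the gene a single region, from 115505494 to 115508213, was covered in all 6 libraries, with 1127, 973 and 664 bp in Azin2-/- and 1062, 2042 and 1639 bp in wild-type. A second region shared by all, from 115558841 to 115560145, lies outside the Pxn span and within 1 kb of an end of Rplp0, a ribosomal protein gene. It held 824, 690 and 1171 bp in Azin2-/- and 845, 435 and 652 bp in wild-type, so the neighbour's cover, higher on average in Azin2-/-, counts into the Pxn locus.

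Zyxin, encoded by Zyx (chromosome 6, 42349511 to 42360213), is a LIM-domain protein that moves to strained stress fibres and adhesions. Its locus had 1064, 1921 and 767 bp in Azin2-/- and 2919, 3068 and 3100 bp in wild-type, a mean of 1251 ± 599 against 3029 ± 96.6 bp (SD, n = 3 each). All Azin2-/- libraries were below all wild-type libraries, and the wild-type values lay close together. Within 2 kb of the start the cover was 1064, 1447 and 767 bp in Azin2-/- and 1941, 2653 and 3100 bp in wild-type.

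The Zyx summit was nearly fixed while the stretch around it was not. It lay between 326 and 467 bp downstream of the start in all 6 libraries. The stretch that holds it was 1064, 1237 and 767 bp wide in Azin2-/- and 1941, 2645 and 3100 bp wide in wild-type. Its downstream edge lay at 738, 673 and 795 bp from the start in Azin2-/- and at 1663, 1537 and 1673 bp in wild-type, so the genotypes were apart. The upstream edge overlapped between genotypes, at -325, -563 and 29 bp in Azin2-/- and at -277, -1107 and -1426 bp in wild-type. The AP-1 element of the Zyx promoter thus lay outside the stretch in Azin2-/- replicate 8 and inside it in the other 5 libraries. In their own lists these stretches ranked 6763, 1377 and 4026 by the authors' p in Azin2-/- and 548, 918 and 651 in wild-type. Ranks describe a place within a list and do not measure change between lists. Background depth differed between libraries as well, and its part in these widths was not tested. In Azin2-/- replicate 1 and wild-type replicate 2b, of near equal background, the Zyx stretch had 1064 and 3100 bp. In replicate 2 of Azin2-/- and of wild-type, also near in background, it had 1237 and 2645 bp. Azin2-/- replicate 8, with the highest background, had 767 bp, and wild-type replicate 1, with the lowest, had 1941 bp. The pairs were picked after the data were seen, with 1 library per genotype in each, and are not a test.

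**Figure D2:**
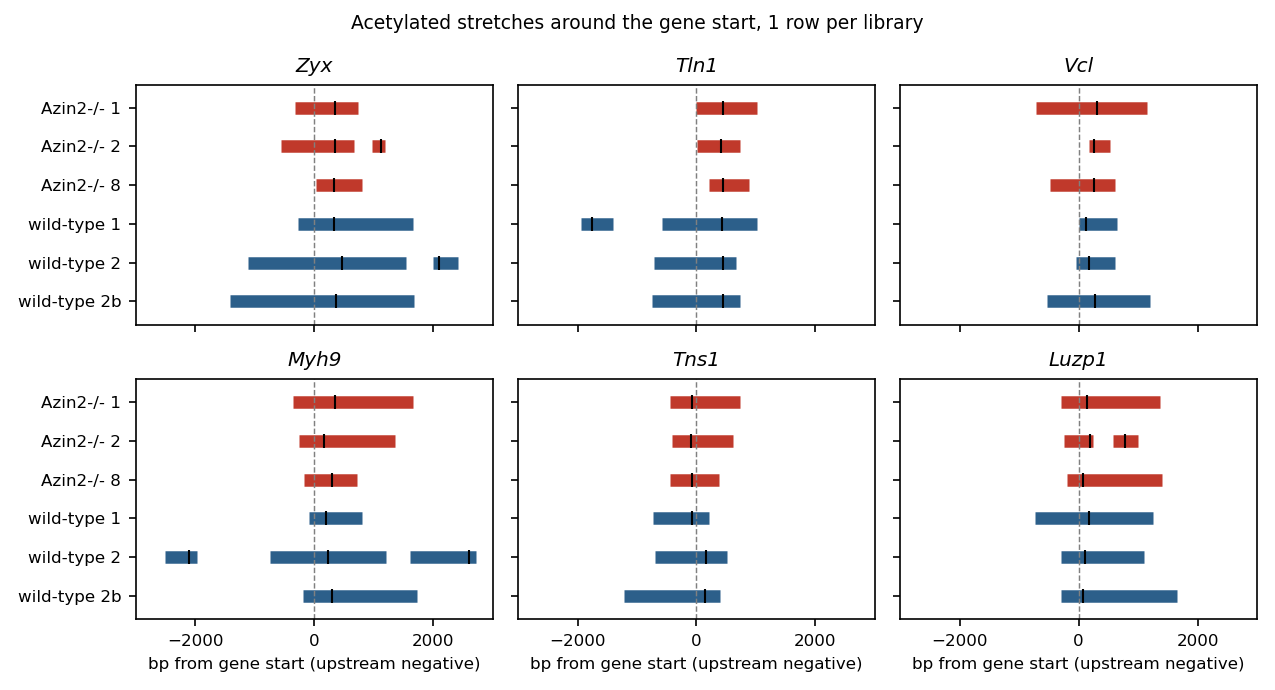
Stretches around the start of 6 genes, as horizontal bars against the distance in bp from the start (x axis, upstream negative), with 1 row per library, Azin2-/- in red above wild-type in blue. Black ticks are summits; at Zyx the blue bars reach 1537 bp or more downstream and the red bars nearest the start 795 bp at most.

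Tensin 1, encoded by Tns1 (chromosome 1, 73910232 to 74124548), binds integrin tails and actin in adhesions along matrix fibrils. Its locus had 5838, 3654 and 4882 bp in Azin2-/- and 7613, 6700 and 10113 bp in wild-type, a mean of 4791 ± 1095 against 8142 ± 1767 bp (SD, n = 3 each). Every Azin2-/- value lay below every wild-type value. The start contributed little to this. Within 2 kb of it the cover was 1187, 1040 and 836 bp in Azin2-/- and 945, 1202 and 1613 bp in wild-type, which overlap before scaling to total cover. The rest of the locus had 4651, 2614 and 4046 bp in Azin2-/- and 6668, 5498 and 8500 bp in wild-type. The upstream edge at the start lay at -448, -417 and -450 bp in Azin2-/- and at -731, -695 and -1220 bp in wild-type. The genotypes were apart at this edge, and narrowly so at the summit.

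The gene body of Tns1 was dotted with separate stretches, whose number was 5, 5 and 4 in Azin2-/- and 14, 9 and 12 in wild-type. Those ranked past 15000 in their list numbered 1, 2 and 0 in Azin2-/- and 8, 6 and 7 in wild-type. In the 15000 strongest peaks the Tns1 locus difference was -0.13 (SE 0.33) on the log2 scale explained below. It was -0.84 (SE 0.36) in the 30000 strongest, so at equal list lengths it shrank without the weaker stretches. With peaks at a q of 0.01 or less, lists of unequal length, it was -0.84 (SE 0.44). At a q of 0.05 or less it was -0.69 (SE 0.41). Non-overlapping lower numbers of stretches were found at 1.24% of the tested loci (higher ones at 2.57%), and among the 10 genes at Tns1 alone. Of the 34 merged regions of the locus 26 were present in a single library and 1, that at the start, in all 6. A region from 74014948 to 74016260 had no cover in Azin2-/- and had 1104, 0 and 1008 bp in wild-type. At the region from 74036073 to 74038345 cover was 711, 0 and 1435 bp in Azin2-/- and 0, 0 and 1758 bp in wild-type. With deposited peaks of any strength counted, the first region was held by 4 of the 6 libraries and the second by all 6.

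**Figure D3:**
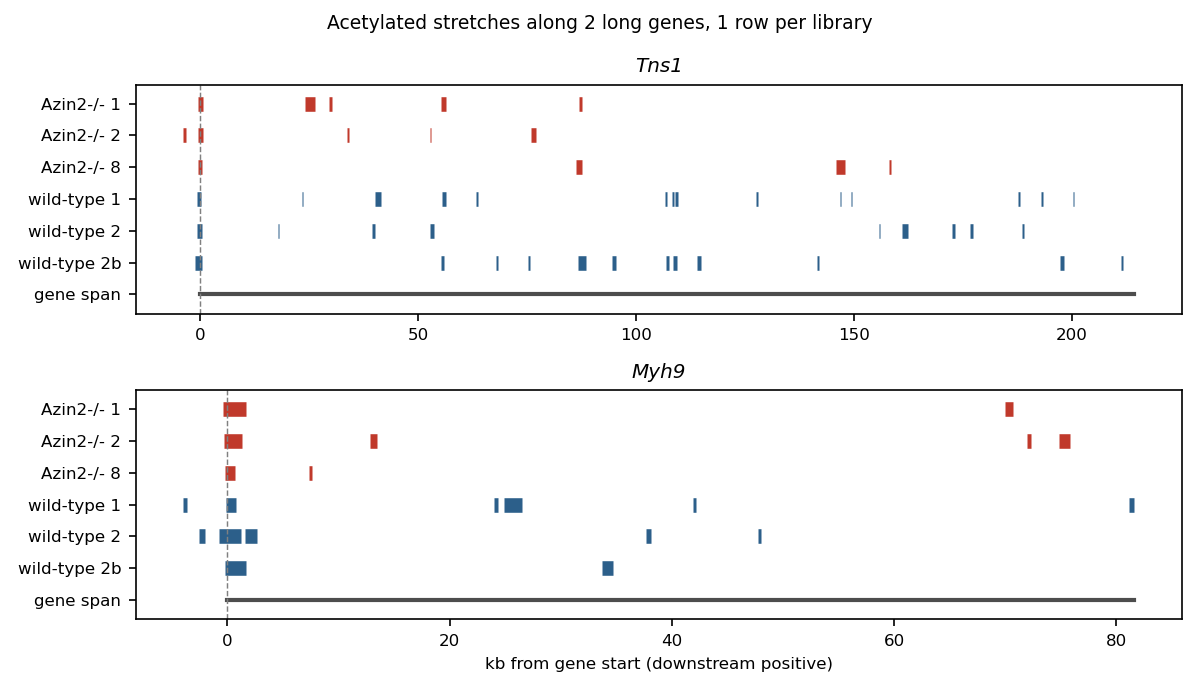
Stretches along Tns1 and Myh9 (x axis, kb from the start, downstream positive), with 1 row per library, Azin2-/- in red above wild-type in blue and the gene span as a grey line. At Tns1 the Azin2-/- rows hold 4 or 5 stretches and the wild-type rows 9 to 14, while the stretch at the start is present in every row of both genes.

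Beta-actin, encoded by Actb (chromosome 5, 142903115 to 142907976), forms the filaments themselves. Its locus had 2038, 870 and 1224 bp in Azin2-/- and 2336, 1503 and 3321 bp in wild-type, so the lowest wild-type library lay below the highest Azin2-/- library. In every list the strongest stretch lay over the gene, with all summits within 250 bp. That stretch ranked 13626, 5064 and 4976 in Azin2-/- lists and 384, 1492 and 806 in wild-type lists. These ranks depend on the list and do not measure change between lists. At rank 13626 in Azin2-/- replicate 1 the authors' -log10 p was 11.33, and at rank 5064 in replicate 2 it was 8.41. The share of loci whose ranks are apart between genotypes was not computed.

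Non-muscle myosin IIA, whose heavy chain is encoded by Myh9 (chromosome 15, 77760585 to 77842175), pulls on actin filaments and loads adhesions with tension. Cover of the locus was 2677, 3579 and 1184 bp in Azin2-/- and 3921, 4383 and 2923 bp in wild-type, which overlap in Azin2-/- replicate 2. At the start it was 2025, 1614 and 900 bp in Azin2-/- and 904, 2390 and 1920 bp in wild-type. The 6 summits at the start lay between 157 and 349 bp downstream of it. Of the 15 merged regions in the Myh9 locus 14 were present in a single library.

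Filamin A, encoded by Flna (X chromosome, 74223461 to 74249854), crosslinks actin filaments and ties them to integrins. Its locus had 830, 943 and 589 bp in Azin2-/- and 2279, 0 and 1431 bp in wild-type, so wild-type held both the highest and the lowest value. The start in the promoter table was covered in wild-type replicate 1 alone, with 847 bp. Cover lay instead at the gene end of higher coordinate, the upstream end of this minus-strand gene. The region there, from 74249441 to 74250525, had 830, 943 and 589 bp in Azin2-/- and 762, 0 and 505 bp in wild-type. The wild-type replicate 2b value of the locus also counts part of a region from 74253929 to 74255119, outside the Flna span and within 1 kb of an end of Emd, the gene of the nuclear membrane protein emerin. At the gene end of higher coordinate wild-type replicate 2 had a deposited peak that was not among its 30000 strongest.

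Luzp1 (chromosome 4, 136462609 to 136554725) encodes leucine zipper protein 1, which binds and bundles actin filaments and is also found at centrosomes and cilia. It carried a pair of acetylated regions in all 6 libraries. The region at the table start, from 136469035 to 136471422, had 1666, 907 and 1595 bp in Azin2-/- and 1982, 1391 and 1959 bp in wild-type. The other, from 136461396 to 136463387, lies over the gene end of lower coordinate, the upstream end of this plus-strand gene. It had 1022, 430 and 566 bp in Azin2-/- and 1176, 806 and 1608 bp in wild-type. At both regions the genotypes overlapped. The upstream edge at the table start lay at -295, -237 and -194 bp in Azin2-/- and at -726, -297 and -297 bp in wild-type, a narrow gap between genotypes.

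Marcks (chromosome 10, 37133243 to 37138926) encodes a protein that binds actin and membrane phosphoinositides until protein kinase C releases it. A single merged region, from 37135679 to 37141430, held all the cover of its locus, with 3668, 1781 and 1557 bp in Azin2-/- and 4327, 1551 and 5383 bp in wild-type. Wild-type replicate 2 had the lowest cover of all 6 libraries and the other wild-type libraries the highest. In wild-type replicate 2b a single stretch of 4607 bp, the widest among the strongest stretches of the 10 genes, reached from the gene to beyond its end of higher coordinate.

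For the comparison across genes, cover was scaled to equal totals per library and the difference taken as Azin2-/- minus wild-type in log2(bp + 500), or in log2(bp + 200) at starts. All 10 genes passed the minimum of 500 bp mean cover, and all 10 differences were negative, with a median of -0.69. Over the 11687 tested loci the median was 0.07 and 45.2% were negative. The difference was -1.18 (SE 0.37) for Zyx, -0.84 (SE 0.36) for Tns1, -0.74 (SE 0.37) for Actb, -0.73 (SE 0.43) for Tln1 and -0.72 (SE 0.41) for Myh9. It was -0.66 (SE 0.37) for Luzp1, -0.65 (SE 0.44) for Marcks, -0.50 (SE 0.44) for Pxn, -0.34 (SE 0.49) for Vcl and -0.22 (SE 0.67) for Flna. With the gene span alone, without the 5 kb flanks, the Tln1 difference was -0.04. An end of Creb3 lies within 1 kb of the region at the Tln1 start, and its part in this was not tested. In the 15000 strongest peaks Myh9 was at -0.30, and in the 60000 strongest Zyx was at -0.52. Vcl and Flna had the other sign without a single library, 0.19 for Vcl without Azin2-/- replicate 2 and 0.45 for Flna without wild-type replicate 1. The Flna region from 74249441 to 74250525 had a positive difference, 0.82 (SE 0.82) in log2(bp + 200), unlike its locus.

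None of the 10 loci passed limma at an adjusted p of 0.05, and nor did any other locus, so the background is 0% of 11687 loci in either direction. At an unadjusted limma p under 0.05, 246 loci (2.1%) were lower in Azin2-/-, Zyx and Tns1 among them, and 503 (4.3%) were higher. Scaled values below those of every wild-type library were found at 4.86% of loci, and at the same 2 of the 10 genes, and values above them at 6.66% of loci. Since the list was drawn up with these differences known, the counts carry no weight beyond description.

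At gene starts, 6 members passed the minimum of 200 bp, Flna falling under it, and all 6 differences were negative with a median of -0.41, against 0.10 over 8082 starts. They were -1.23 (SE 0.25) for Zyx, -1.02 (SE 0.35) for Tln1, -0.47 (SE 0.30) for Luzp1, -0.35 (SE 0.28) for Tns1, -0.27 (SE 0.30) for Myh9 and -0.08 (SE 0.50) for Vcl. That of Vcl is smaller than its SE and was positive without Azin2-/- replicate 2 or wild-type replicate 2b, and without the scaling. Azin2-/- was below every wild-type library at Zyx, Tln1 and Tns1, as at 5.02% of starts, and above them at none of the 6, as at 6.36% of starts. No start passed limma at an adjusted p of 0.05 (0% of 8082), and at an unadjusted p under 0.05 168 starts (2.08%) were lower, Zyx and Tln1 among them, and 265 (3.28%) higher. The Zyx start was at 0.16 when each peak was replaced by a fixed window around its summit, which discards width. Flna, untested here, had its cover away from the table start, at its upstream gene end. The region there had the other sign, 0.82 (SE 0.82).

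**Figure D4:**
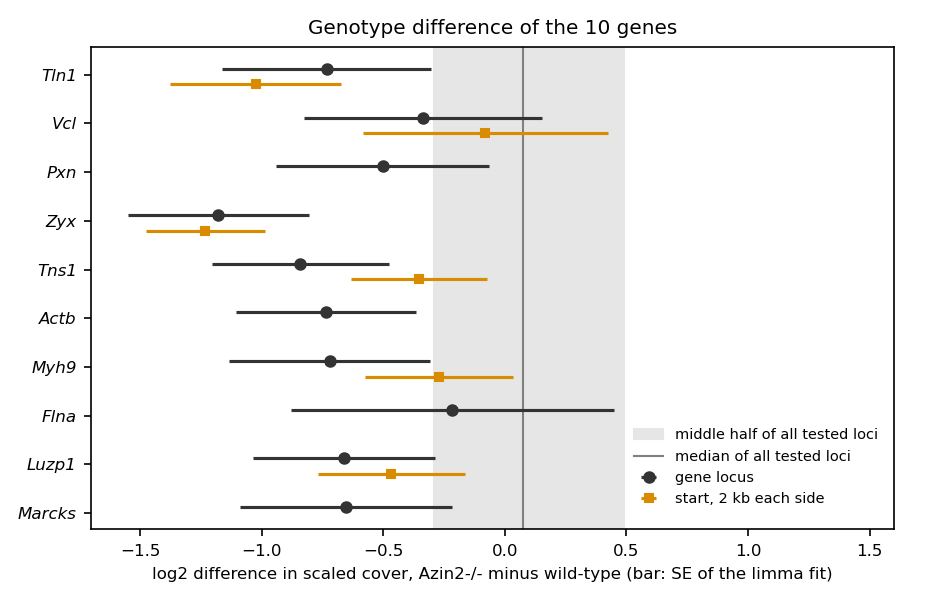
Log2 difference in scaled cover, Azin2-/- minus wild-type (x axis), for the 10 genes over the whole locus (circles) and, for the 6 that passed the minimum, within 2 kb of the start (squares), with bars for the SE of the limma fit. The grey band spans the middle 50% of all tested loci and the line their median of 0.07; Zyx lies farthest to the left on both measures.

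Summed over the 10 loci, the stretches made up 0.0953, 0.0782 and 0.0896% of all cover in Azin2-/- and 0.212, 0.113 and 0.148% in wild-type. Wild-type replicate 1, whose background and total cover were the lowest of all, had the highest share. The 10 loci held 24, 26 and 20 stretches in Azin2-/- and 48, 26 and 33 in wild-type.

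A wider set of 99 adhesion and actin genes was listed by textbook role, also with earlier results of these data known. Of these 90 passed the minimum, with 61 negative and 29 positive differences and a median of -0.15. Over all loci the median was 0.07 and 45.2% were negative. None passed limma at an adjusted p of 0.05. At an unadjusted limma p under 0.05 there were 3 lower and 1 higher, against 2.1% lower and 4.3% higher of all loci. Azin2-/- was below every wild-type library at 5 of the 90 genes, or 5.56%, close to the 4.86% of all loci. It was above every wild-type library at 2 of the 90 genes, against 6.66% of all loci.

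Among 13 integrin genes the median difference was -0.00, with 7 negative and 6 positive. Itgb1, the beta subunit shared by most matrix receptors, had 1892, 1452 and 2449 bp in Azin2-/- and 2279, 1074 and 2011 bp in wild-type, a difference of -0.00. Itga8, an alpha subunit that pairs with it, had 1638, 1319 and 3486 bp in Azin2-/- and 443, 810 and 1169 bp in wild-type. Its genotypes were apart, and its difference was 0.91. Itgb5 was at -0.68.

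Of the plaque adaptors 27 of 29 were tested, 19 negative and 8 positive, with a median of -0.17. Parva, encoding parvin alpha, which joins integrin-linked kinase to actin, had the lowest p, with 1034, 1326 and 278 bp in Azin2-/- and 3915, 850 and 6211 bp in wild-type. Its genotypes overlap, because wild-type replicate 2 lies within the Azin2-/- range, and its difference was -1.52 (SE 0.57). Fermt2, or kindlin 2, which activates integrins together with talin, differed by -0.62 and Tln2, the second talin gene, by -0.21. Git1, a paxillin-binding protein, differed by 0.48.

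Among the kinases of adhesions, Src, the tyrosine kinase that acts with focal adhesion kinase at adhesions, had 3054, 1219 and 824 bp in Azin2-/- and 2744, 3331 and 4695 bp in wild-type, a difference of -1.13 (SE 0.36). Its groups overlap before scaling and are apart after it. Limk2, a kinase that acts on the actin-severing protein cofilin, had 1963, 0 and 760 bp in Azin2-/- and 1627, 2991 and 535 bp in wild-type, a difference of -0.93 (SE 0.64) with overlap. Ptk2, focal adhesion kinase itself, differed by 0.31 and Pak1, a kinase downstream of Rac and Cdc42, by 0.97.

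Among actin isoforms, motors and actin-binding proteins 31 of 38 were tested, 23 negative and 8 positive, with a median of -0.19. Myh10, the heavy chain of non-muscle myosin IIB, had the opposite sign to Myh9, with 3027, 2149 and 1538 bp in Azin2-/- and 520, 1602 and 0 bp in wild-type and a difference of 1.23 (SE 0.53). Tpm1, a tropomyosin that coats actin filaments, had 3414, 2104 and 1239 bp in Azin2-/- and 453, 1258 and 1008 bp in wild-type, a difference of 0.85. Synpo, which encodes the actin-associated protein synaptopodin, was at -0.98. The groups of both overlap before scaling and are apart after it, with Azin2-/- higher at Tpm1 and lower at Synpo. The crosslinker Actn1 differed by -0.06 and Marcksl1, the paralogue of Marcks, by -0.29. Tagln, a smooth muscle actin-binding protein, fell under the minimum, with 1161, 0 and 0 bp in Azin2-/- and 0, 375 and 0 bp in wild-type. Actg1 was not analysed here, since the lists used hold no peak of any strength in its locus, as for 778 of the 21631 loci.

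SRF and its cofactors Mrtfa and Mrtfb were all tested, and each differed by less than its SE. Srf had 5232, 2101 and 2125 bp in Azin2-/- and 1683, 1145 and 3440 bp in wild-type, a difference of 0.38 (SE 0.38), Mrtfa differed by 0.44 and Mrtfb by -0.03.

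**Figure D5:**
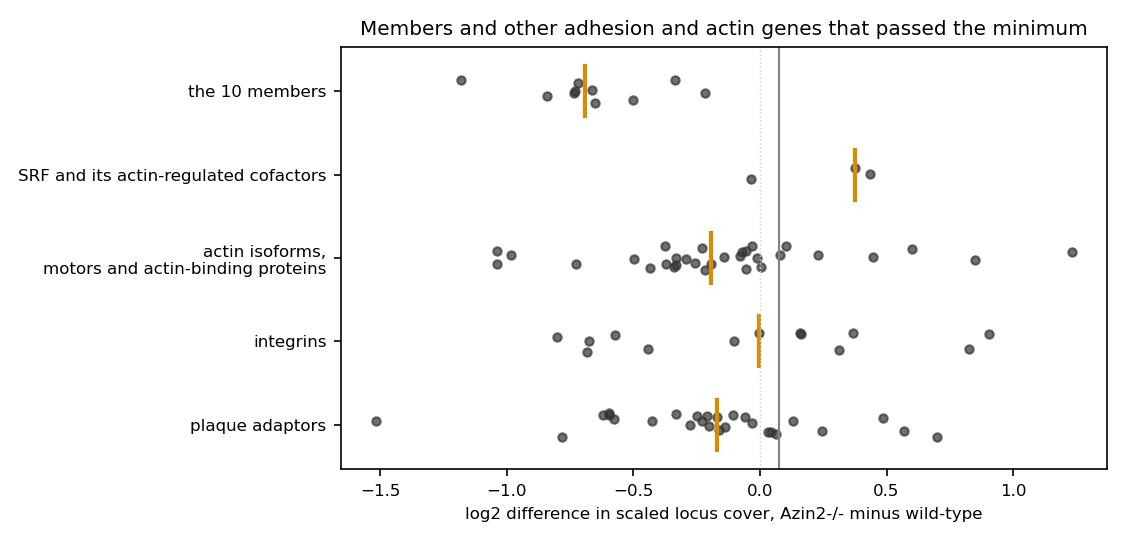
Log2 difference in scaled locus cover, Azin2-/- minus wild-type (x axis), of the 10 genes and of 4 lists of other adhesion and actin genes (rows), with 1 point per gene and an orange bar at each list's median. The grey line is the median of all tested loci, 0.07; the 4 other lists shown spread over both signs with medians from -0.19 to 0.38, and 1 further list, counted among the 90 genes, is not shown.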

How the data were processed

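H3K27ac ChIP-seq libraries of 3 Azin2-/- and 3 wild-type samples were used; the 6 input libraries were not analysed here. The deposited files are 1 peak list per library on GRCm38 (mm10), per the submitters' processing notes; the sources used here name no aligner, peak caller or control. For each peak the deposited lists give a score, a fold ratio over local background, a -log10 p-value and q-value, and the summit. These values are the authors' and served only to rank and filter peaks within a list. The background level solves each deposited fold and p for a Poisson mean, and entered no test.

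The 30000 peaks of smallest p per library were kept. Cover was scaled to equal totals, logged after adding 500 bp (loci) or 200 bp (starts and regions), and tested with limma 3.58.1 (R 4.3.3, eBayes with a mean trend, Benjamini-Hochberg over all features) where mean cover reached 500 or 200 bp. limma was also run on simulated cover with even spread across loci, unlike the real cover, and the outcome is not reported here. Starts came from the RefSeq table for 17274 genes, the first entry where several are listed. Members and lists were chosen with earlier results of these data known. Named were all 10 members, 9 fixed pathway genes and, per list, the 2 genes of smallest p in each direction; not all are printed, and the summary of 1 list is not reported here. Same-numbered libraries correlated by -0.0352 (number 1) and 0.123 (number 2) in their deviations. Differently numbered libraries of the 2 genotypes correlated by -0.0999 to 0.0931. Nothing in the labels pairs libraries, so numbers were not taken as pairs.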

Additional observations from a re-analysis of the deposited data

How the results depend on the processing

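With the replicate block (the replicate number as a term, 1 residual degree of freedom) 0 loci, starts and regions passed limma, as in the fit without it; numbers 1 and 2 are the only ones shared, and nothing in the labels pairs them. Without any single library the counts were 0 as well. Counts above 0 came from peaks at a q of 0.01 or less (26 loci, 22 higher and 4 lower in Azin2-/-, and 3 regions), at a q of 0.05 or less (1 region), from the 60000 strongest peaks (50 regions) and with no minimum mean cover (61 regions). Replacing each peak by its summit with 250 bp to either side gave 49 loci, 162 starts and 561 regions, and such windows register where summits lie and not how wide stretches are. No member passed as a locus or start in any alternative. The Zyx region passed with no minimum mean cover, and the Marcks region there and in the 60000 strongest peaks; in both fits limma's prior had infinite weight, so a region's own spread played no part.

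In the 5000 strongest peaks 1 member, in place of 9, had a peak in its locus in all 6 libraries, and 1 in place of 6 at its start. The share of all cover in the 10 loci differed by -0.0701 percentage points, by -0.213 in the 5000 strongest peaks and by -0.117 at a q of 0.01 or less (alternatives for this share were chosen after the data were seen). Of 198 alternative locus values 190 kept their sign, and 8 of Flna, Vcl and Marcks did not; 16 moved by more than the replicate spread, among them Tns1 in 4 settings (-1.20 in the 60000, -0.13 in the 15000 and -0.46 in the 5000 strongest peaks and -1.15 in summit windows). The Zyx locus ranged from -1.47 to -1.03 without single libraries, and was -0.06 at its weakest, in the fixed summit windows, and -0.52 in the 60000 strongest peaks. Without scaling the median of all starts was 0.21 in place of 0.10. Depth is unknown beyond the implied background, and its part in the width of stretches was not tested.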
